A study of Mus musculus with 6 samples.

Results

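The TRIM genes encode a large family of mostly ubiquitin ligases. They were taken by name, as the protein-coding rows of the deposited count table whose symbol is Trim followed by a digit, which gave 68 of the 54532 genes in the table. Of these, 39 had enough reads to be tested, out of 12972 genes tested in all. Levels were set between sorted RAW264.7 cells, a mouse macrophage cell line with the genotype WT in the labels, after a 48 h coculture with TTJ cells (3 libraries) and sorted RAW264.7 cells that grew alone (3 libraries). TTJ cells lack Tsc2, whose loss causes tuberous sclerosis complex, and came from an angiomyolipoma, a tumour typical of the kidney, of a mouse model of that disease. The series asked how such cells act on macrophage polarization. RAW264.7 and TTJ are 1 line each, and both groups were collected by FACS, with no gate stated in the labels. Whether replicates A, B and C were cultured separately is not stated either, so the p-values cover the spread among these 6 libraries only, and part of it may be technical.

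A TRIM protein carries, from its front end, a RING domain that recruits a ubiquitin-conjugating enzyme, 1 or more B-box zinc-binding domains and a coiled coil through which the proteins pair. The end of the protein differs between members and chooses the target, most often through a PRY-SPRY domain. Many members are induced by interferon in macrophages, where some bind virus capsids and others tag sensors and adaptors of innate immune signalling. Other members act in transcriptional repression, on microtubules or in muscle.

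The libraries held 14329487 to 16976782 counts in coculture and 14621832 to 17358280 counts alone. Levels are given as CPM, counts scaled to library size, and as FPKM, the authors' length-scaled value, where genes are set against each other. Changes are log2 of coculture over alone with their standard error (SE), and adjusted p-values are from edgeR's quasi-likelihood test with Benjamini-Hochberg adjustment over all genes tested, with 0.05 as the threshold. The 9 macrophage markers on the list used here were all detected in every group, with a summed level of 12273 to 12616 CPM in coculture and 11556 to 11677 CPM alone. Most of each sum was Lyz2 (means of 7266 CPM in coculture and 6768 CPM alone). Of the 9, 5 were called higher and 2 lower, beside 21.7% and 15.2% of all genes tested. The lower ones were Spi1 (log2 -0.23) and Cd68 (log2 -0.10), while Fcgr1 (log2 1.17) rose most. Markers of renal epithelium, listed for the tumour that TTJ came from, summed to 287 to 332 CPM over 12 genes in coculture and 0 to 0.06 CPM alone, where 10 of the 12 were at 0. In coculture Cldn7, Epcam and Lhx1 were at 0. Mesenchymal markers, also 12 genes, summed to 91.8 to 106 CPM in coculture, with Col3a1, Myl9 and Pdgfra at 0, and to 1.79 to 1.93 CPM alone. Most of the coculture sum came from Thbs1, Col5a1, Timp3 and Cav1 (means of 37.9, 25.6, 17.9 and 15.2 CPM). Tagln (0.212 CPM in coculture, 0.298 CPM alone) and Pdgfrb (0.496 and 0.548 CPM) were slightly lower in coculture. Acta2 did not pass the test described above. The part of cells with these markers in the results on TRIM genes was not tested. In bulk RNA of this kind, fewer cells of a type and less RNA per cell cannot be told apart.

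Summed over the family, levels overlapped between the groups, while single members differed. All 68 genes summed to 2493, 2485 and 2465 CPM in coculture, a mean of 2481 ± 14.5 (SD, n = 3). Alone they summed to 2489, 2451 and 2437 CPM, a mean of 2459 ± 27.0 (SD, n = 3), so the ranges overlapped. Of the 39 tested members, 11 (28.2%) were higher in coculture and 6 (15.4%) were lower, beside 21.7% higher and 15.2% lower among all genes tested. The share of members called lower was therefore close to that of all genes. Trim12a, Trim30b and Trim30d were under the filter's limit of 0.618 CPM in every library of cells alone and were tested only through their coculture libraries, so their direction was fixed and their calls are no support for a rise of the family. Among the tested members without these 3, 8 of 36 (22.2%) were higher, beside 16.9% of the genes chosen in the same way from all those tested. A rise of at least 2-fold was called in 6 members (15.4%), these 3 among them, beside 9.34% of all genes. Without genes of that kind it was called in 3 of 36 members (8.33%), beside 3.71% of genes. A fall of at least 2-fold was called in 0 members, beside 0.447% of all genes. The median log2 change was 0.03 over the tested members and 0.0029 over all genes tested. Of the 11 higher members, 6 lay in a single stretch of chromosome 7, Trim12a, Trim30b and Trim30d among them. The 6 lower members averaged over 50 CPM in both groups, and their log2 changes ran from -0.26 to -0.12.

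**Figure D1:**
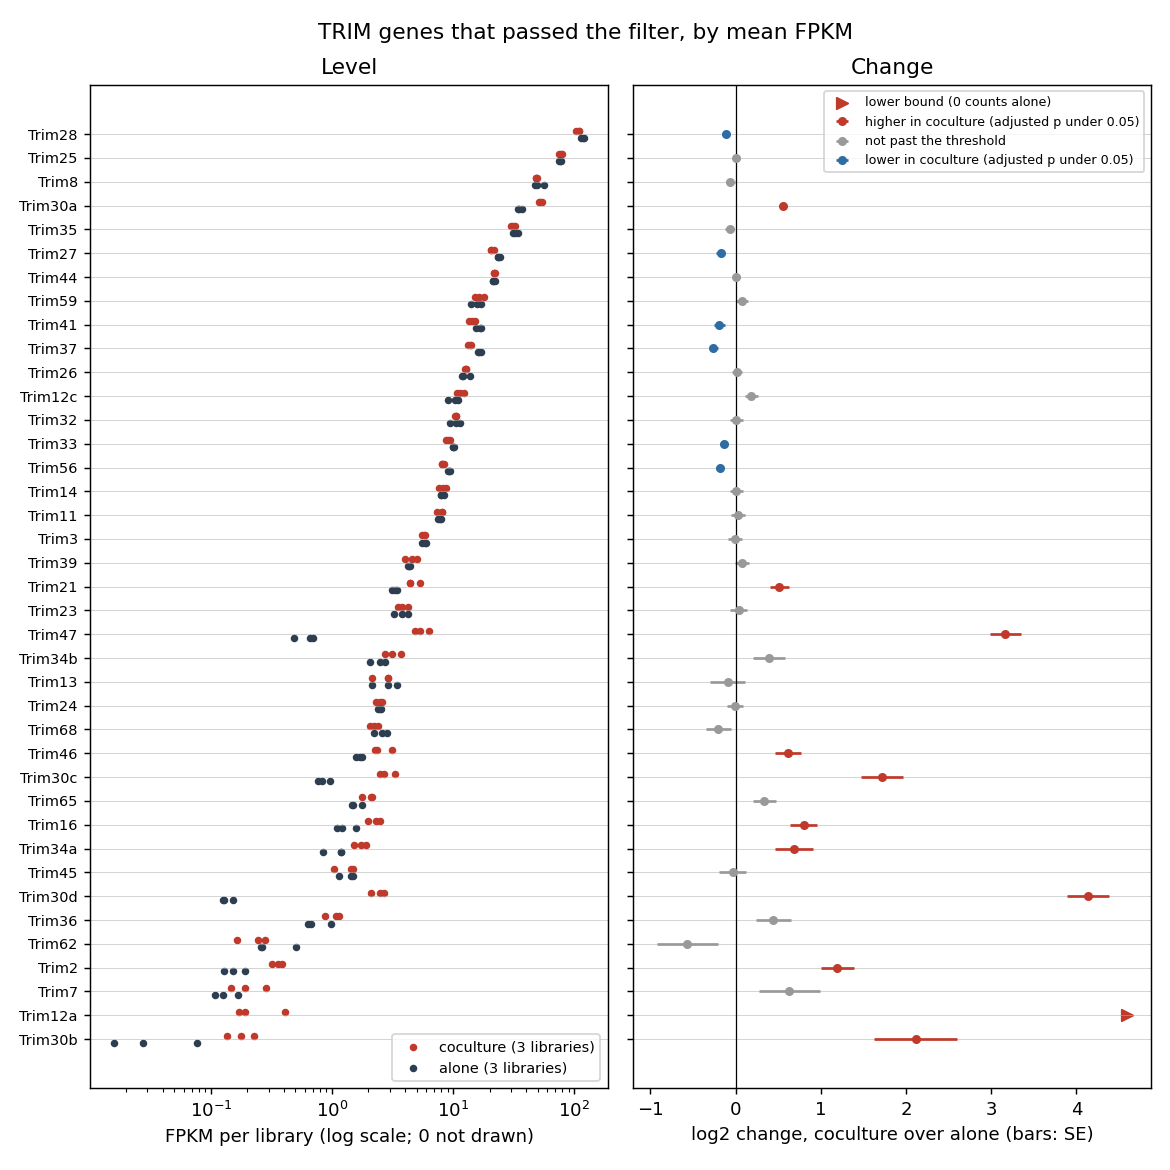
The 39 tested TRIM genes, ordered by mean FPKM. Left, FPKM in each of the 3 coculture libraries and the 3 libraries of cells alone, on a log axis; right, log2 change of coculture over alone with its SE, coloured by call, with Trim12a as a lower bound. Members called lower sit in the upper part of the plot and close to 0, whereas Trim47, Trim30d, Trim30c and Trim30b stand well to the right.

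Per length, Trim28 was the most abundant member, with 108 ± 3.20 FPKM in coculture and 117 ± 3.57 FPKM alone (SD, n = 3 each). Trim25 followed with 76.8 ± 2.02 FPKM in coculture and 76.4 ± 1.14 FPKM alone. Trim30a came next in coculture at 52.2 ± 1.51 FPKM and Trim8 after it at 48.9 ± 0.53 FPKM. Alone, that order was turned, with Trim8 at 51.1 ± 4.36 FPKM and Trim30a at 35.4 ± 1.43 FPKM. In cells alone Trim30a and Trim35 (32.8 ± 1.52 FPKM) were neighbours that differed by little more than their spread. The lowest tested members were Trim30b in coculture, at 0.179 ± 0.045 FPKM, and Trim12a in cells alone, listed at 0 in every library.

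Of the 11 members called higher, 7 were interferon-linked, and all of these but Trim21 lay together. The list of TRIM genes known for antiviral action or induction by interferon held 13 tested genes, of which 7 (53.8%) were higher, 1 (7.69%) was lower and 5 did not pass, with a median log2 change of 0.51, beside 21.7% higher and 15.2% lower among all genes tested. Of the 7 higher, Trim12a, Trim30b and Trim30d had a fixed direction, so the share and the median are no support for a rise of the list. Without these genes, the higher members on the list were Trim21, Trim30a, Trim30c and Trim34a. Trim2, Trim16, Trim46 and Trim47 were higher and off the list, which held only 13 of the 39 tested members. A run of 10 members no more than 100 kb apart lay at chr7:104218793-104507849 (mm10), a stretch of 289 kb that holds the mouse relatives of TRIM5, a retrovirus restriction factor of primates, and the Trim30 genes. Of its 8 tested members 6 (75.0%) were higher, 0 were lower and 2 did not pass, beside 21.7% higher among all genes tested. Their median log2 change was 1.20, but Trim12a, Trim30b and Trim30d, with a fixed direction, are among the 6 and raise it. The share and the median are therefore no support for a rise of the run. Of the others, Trim30a, Trim30c and Trim34a were higher and Trim12c and Trim34b did not pass. Among all genes tested without those of fixed direction, 16.9% were higher. The log2 changes of these others ran from 0.18 to 1.72. The 10 genes summed to 297, 284 and 279 CPM in coculture and to 184, 203 and 193 CPM alone. Every coculture library was above every library of cells alone, and Trim30a made up most of both sums. Of 8 other genes inside the stretch, 1 was tested, Gm45471, and it did not pass (log2 0.70, adjusted p = 0.346).

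Trim30a (ENSMUSG00000030921, chr7:104409025-104465193, minus strand), which in mouse macrophages restrains NF-kB signalling by promoting loss of the TAK1-binding proteins Tab2 and Tab3, was the abundant gene of the run. It had 222, 213 and 210.2 CPM in coculture, against 141, 153 and 144 CPM alone. The 3 coculture libraries were the high ones and the groups did not overlap. The change was 1.47-fold (log2 0.56, SE 0.05, adjusted p = 2.81e-10).

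Trim30d (ENSMUSG00000057596, chr7:104470014-104507849, minus strand), its neighbour and close relative, was near the lower limit of detection in cells alone. Its level was 7.98, 9.38 and 10.05 CPM in coculture (114, 147 and 171 counts), against 0.481, 0.480 and 0.576 CPM alone (7, 8 and 10 counts). All coculture libraries were far above all libraries of cells alone, and the fitted change was 17.5-fold (log2 4.13, SE 0.25), in a direction fixed by the filter. Of the 150-base stretches of Trim30d transcripts, 4.02% were identical to Trim30a, and 3.48% of those of Trim30a to Trim30d, so most read-length stretches differ between the genes.

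The upstream sequences of these neighbours were much alike. They are shown because both hold the same match to the core of the interferon-stimulated response element (ISRE), the site through which interferon-activated factors switch genes on. Of 250 bases before the annotated start, 227 (90.8%) were identical in a global alignment. Both are from RefSeq (GRCm38.p6), on the minus strand, 5′ to 3′, from chr7:104507850-104508099 for Trim30d and chr7:104465194-104465443 for Trim30a. Capitals mark the ISRE core.
Trim30d: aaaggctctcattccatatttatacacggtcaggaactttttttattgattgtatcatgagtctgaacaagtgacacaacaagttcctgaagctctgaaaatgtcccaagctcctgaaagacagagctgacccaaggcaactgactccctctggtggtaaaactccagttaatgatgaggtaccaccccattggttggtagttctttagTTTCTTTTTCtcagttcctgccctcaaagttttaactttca
Trim30a: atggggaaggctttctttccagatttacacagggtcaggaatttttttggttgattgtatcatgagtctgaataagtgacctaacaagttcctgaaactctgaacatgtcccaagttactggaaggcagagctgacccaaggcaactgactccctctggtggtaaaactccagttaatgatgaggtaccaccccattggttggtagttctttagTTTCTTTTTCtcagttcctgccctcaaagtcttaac

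Matches to the ISRE core, GAAANNGAAA or TTTCNNTTTC on the other strand, were counted in windows of 250 bases before to 50 after each start site. RefSeq windows were at hand for 53 of the 68 members. The motif was in 9 of these (17.0%), beside 1079 of 27025 genes with a window (3.99%). It was in 6 of the 10 members with a window that were higher and in 0 of 5 that were lower. It was also in 2 of 15 that did not pass and in 1 of 23 that were not tested. Of the 6, Trim12a and Trim30d had a direction fixed by the filter, and Trim30a and Trim30d have much the same upstream sequence. The share among all genes called higher was not counted, so nothing about the rises is read from these counts. The related GAS motif, TTCNNNGAA, was in 6 of 53 members (11.3%), beside 2582 of 27025 genes (9.55%), and in 2 of the 10 higher members, Trim30c and Trim46. A match is a description of these letters, and no binding was measured.

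The ISRE matches of the members are given as 30 bases on the strand of each gene, 5′ to 3′, with the matched letters in capitals and overlapping matches run together. They are shown so that the copies in the chromosome 7 run can be set beside those elsewhere. The windows are at chr7:102565447-102565476 (minus) for Trim21, chr7:104244457-104244486 (plus) for Trim34a, chr7:104288136-104288165 (minus) for Trim5, chr7:104315466-104315495 (minus) for Trim12a and chr7:104353359-104353388 (minus) for Trim12c. The others are at chr7:104465210-104465239 (minus) for Trim30a, chr7:104507871-104507900 (minus) for Trim30d, chr17:36836979-36837008 (plus) for Trim26 and chr3:84212791-84212820 (minus) for Trim2.
Trim21: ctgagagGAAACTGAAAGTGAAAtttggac
Trim34a: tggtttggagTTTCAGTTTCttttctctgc
Trim5: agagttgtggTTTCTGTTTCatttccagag
Trim12a: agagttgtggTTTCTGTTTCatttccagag
Trim12c: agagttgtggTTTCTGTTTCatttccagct
Trim30a: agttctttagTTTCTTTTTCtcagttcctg
Trim30d: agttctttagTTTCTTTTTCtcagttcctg
Trim26: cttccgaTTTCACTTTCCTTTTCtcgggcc
Trim2: tcagctttggTTTCCTTTTCtctaagacag

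Trim5 and Trim12a had the same 30 letters, and Trim30a and Trim30d had the same 30 letters. Trim30a had a further match at an inner start site (chr7:104446104-104446133, minus strand), 19068 bases from the end of the gene in the count table, whose 30 bases are given for comparison.
Trim30a, inner start: ttgtttttagTTTCTTTTTCtcagttcctg

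The match of Trim2 also lies at an inner start site, 52600 bases from the end of the gene in the count table. Of the members with a match, Trim12c and Trim26 did not pass the test, and Trim5 was too low for it.

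The other Trim30 genes had few reads. Trim30c had 82, 73 and 73 counts in coculture, against 19, 24 and 29 counts alone, so the groups were well apart. Its change was 3.29-fold (log2 1.72, SE 0.25, adjusted p = 3.10e-06). Trim30b had 19, 16 and 29 counts in coculture, against 3, 2 and 10 counts alone, with replicate C the highest library in both groups. Its fitted change was 4.33-fold (log2 2.11, SE 0.49), in a direction fixed by the filter, and without replicate C of the cells alone the log2 change was 3.02.

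The relatives of TRIM5 in the run ranged from well expressed to absent in cells alone. Trim12a had 16, 37 and 17 counts in coculture and 0 in each library of cells alone, which is at least 24.1-fold higher with 3 counts over the group as the floor, in a direction fixed by the filter. Its sister gene Trim12c was at 43.2 ± 2.67 CPM in coculture and 38.0 ± 3.76 CPM alone (SD, n = 3 each) and did not pass the threshold (log2 0.18, SE 0.08, adjusted p = 0.0692). Without replicate B of the cells alone, or without replicate C of coculture, it did pass, with adjusted p = 0.0305 and adjusted p = 0.0469.

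Trim34a had 65, 62 and 84 counts in coculture, against 45, 52 and 38 counts alone. The groups did not overlap, and the change was 1.61-fold (log2 0.68, SE 0.22, adjusted p = 0.0163). The call was lost without replicate C of the cells alone (adjusted p = 0.0837) and without replicate C of coculture (adjusted p = 0.0695). Trim34a is uncertain for a second reason. Of its 150-base stretches, 26.5% were also found in other transcripts, mainly those of the antisense gene Gm47248 and of Trim34b. Gm47248 had 0 counts in every library, but all of its 609 exon bases overlap exons of Trim34a. Trim34b, with 12.8% of its stretches shared, was at 5.95 ± 0.92 CPM in coculture and 4.51 ± 0.62 CPM alone, and did not pass (log2 0.39, SE 0.19, adjusted p = 0.102).

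The last members of the run were too low to test. Trim6 had 7, 10 and 16 counts in coculture and 0 in each library of cells alone, at least 11.4-fold higher. Trim5 had 12, 5 and 3 counts in coculture and 0, 0 and 1 alone, or 20.7 times as many for the library sizes (exact 95% interval 3.31 to 857, counting error alone). For the members with under 1 CPM alone, the summed renal and mesenchymal marker levels given above were also higher in coculture, and their part in these rises was not tested.

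**Figure D2:**
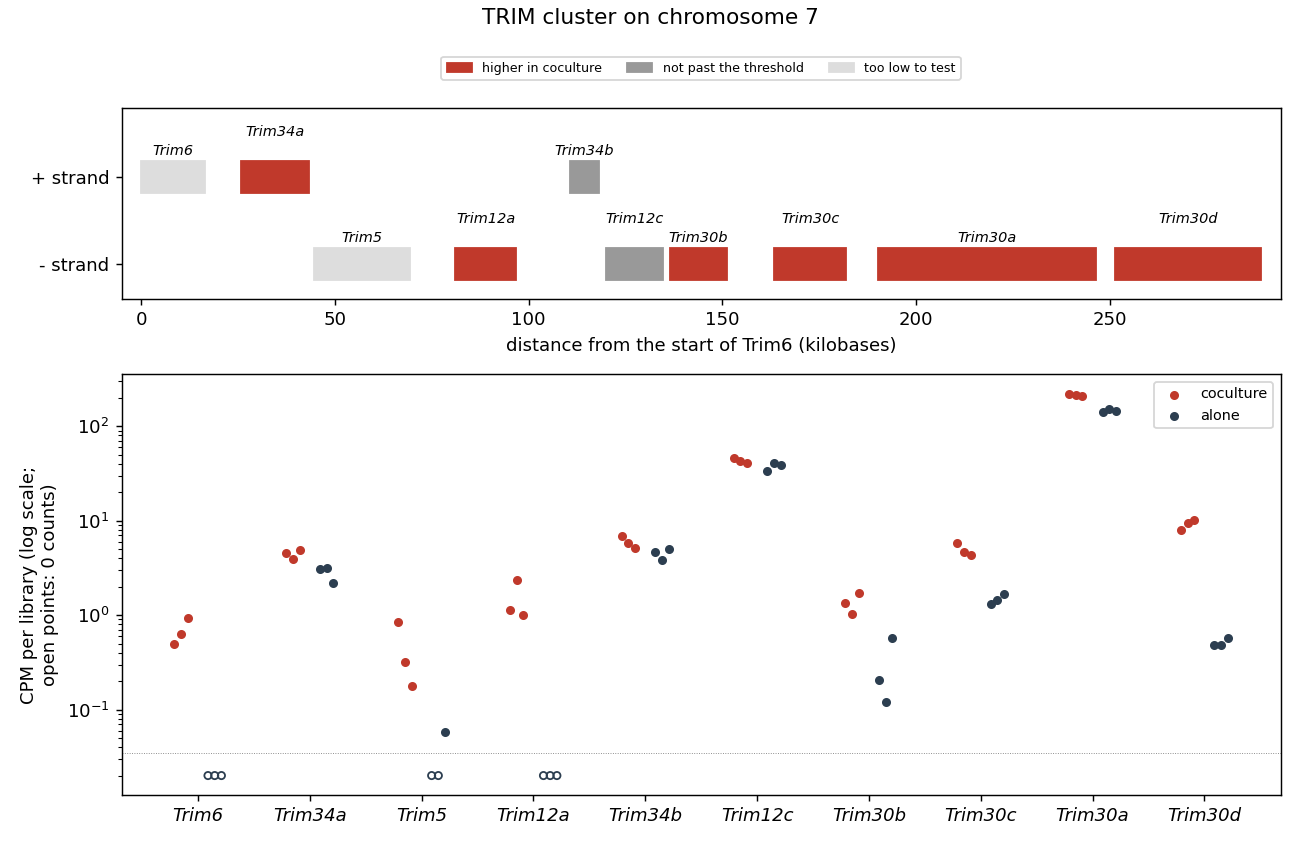
Top, the 10 members of the chromosome 7 run drawn to scale by strand, in kilobases from the start of Trim6 and coloured by call. Bottom, CPM in each of 3 coculture and 3 lone libraries on a log axis, with open points at 0 counts; Trim30a is the highest member in both groups, and Trim6 and Trim12a had 0 counts in every library of cells alone.

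Trim21 (ENSMUSG00000030966, chr7:102557921-102565486, minus strand), a cytosolic receptor for the constant part of antibodies that sends antibody-coated virus to the proteasome, lies on the same chromosome outside the run. It had 19.7, 16.5 and 16.5 CPM in coculture, against 11.7, 12.8 and 12.3 CPM alone, with no overlap. The change was 1.43-fold (log2 0.51, SE 0.11, adjusted p = 0.000732). Trim68, its neighbour, did not pass (7.74 CPM in coculture and 8.90 CPM alone, log2 -0.20, adjusted p = 0.302).

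Of the other members that act in antiviral defence, Trim25, Trim26, Trim14 and Trim65 did not pass the threshold. Trim25, the ligase of the RNA sensor RIG-I, was at 443 ± 11.5 CPM in coculture and 441 ± 6.32 CPM alone (SD, n = 3 each; log2 0.01, SE 0.04, adjusted p = 0.917). Trim26 was at 87.4 ± 0.92 CPM in coculture and 86.5 ± 7.36 CPM alone (log2 0.02, SE 0.06, adjusted p = 0.852). Trim14, an adaptor at mitochondria that lacks a RING, was at 35.6 ± 2.12 CPM in coculture and 35.4 ± 1.16 CPM alone (log2 0.01, SE 0.07, adjusted p = 0.949), with 31.3% of its exon bases shared with Nans on the opposite strand. These p-values do not show equality, but the SEs were small beside the change of Trim30a. Trim65, the ligase of the RNA sensor MDA5, was at 11.8 ± 1.25 CPM in coculture and 9.29 ± 1.05 CPM alone (log2 0.34, SE 0.13, adjusted p = 0.0526). It passed the threshold under 6 of the alternatives tried, among them without replicate C of the cells alone (adjusted p = 0.0244) and without replicate B of coculture (adjusted p = 0.0287).

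Trim56 (chr5:137105644-137116209, minus strand), which is known to restrict RNA viruses and to promote STING signalling, was the interferon-linked member that fell. It had 77.7, 75.4 and 74.9 CPM in coculture, against 87.2, 86.6 and 84.9 CPM alone. The 3 coculture libraries were the low ones, and the level was 1.14-fold lower (log2 -0.18, SE 0.05, adjusted p = 0.00668).

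The nuclear members of the TIF1 group, which carry a PHD finger and a bromodomain, were lower or did not pass. Of 3 tested, 0 were higher, 2 (66.7%) were lower and 1 did not pass, with a median log2 change of -0.12. Among all genes tested, 21.7% were higher and 15.2% lower, and with so few members nothing is read from the count. Trim28 (ENSMUSG00000005566, chr7:12999114-13031035, plus strand), the corepressor that KRAB zinc finger proteins bring to DNA, had 457, 459 and 435 CPM in coculture, against 502, 489.9 and 473 CPM alone. All coculture libraries were below all libraries of cells alone, but the level was only 1.09-fold lower (log2 -0.12, SE 0.04, adjusted p = 0.0218). The call was lost without replicate A of the cells alone (adjusted p = 0.078), without their replicate B (adjusted p = 0.0504) and without replicate C of coculture (adjusted p = 0.13). When only genes that averaged 1 CPM or more alone were tested, Trim28 and Trim33 also lost their calls (adjusted p = 0.0549 and 0.0662).

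Trim33 (chr3:103279293-103358775), which acts with Smad proteins in TGF-beta signalling, had 86.6, 93.3 and 89.0 CPM in coculture, against 98.0, 99.7 and 98.1 CPM alone. It was 1.10-fold lower (log2 -0.14, SE 0.05, adjusted p = 0.0324). This call was lost without replicate A, B or C of the cells alone (adjusted p = 0.0512, 0.0911 and 0.058) and without replicate A or C of coculture (adjusted p = 0.118 and 0.1). It was also lost in the DESeq2 test (adjusted p = 0.0594) and in limma on log2(FPKM + 1) (adjusted p = 0.0911) and log2(FPKM + 0.1) (adjusted p = 0.0867). Trim24 was at 21.1 ± 1.22 CPM in coculture and 21.2 ± 0.60 CPM alone and did not pass (log2 -0.01, SE 0.09, adjusted p = 0.963). Trim66, a member expressed in testis, was too low to test, with 5, 5 and 7 counts in coculture and 0, 1 and 0 alone.

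**Figure D3:**
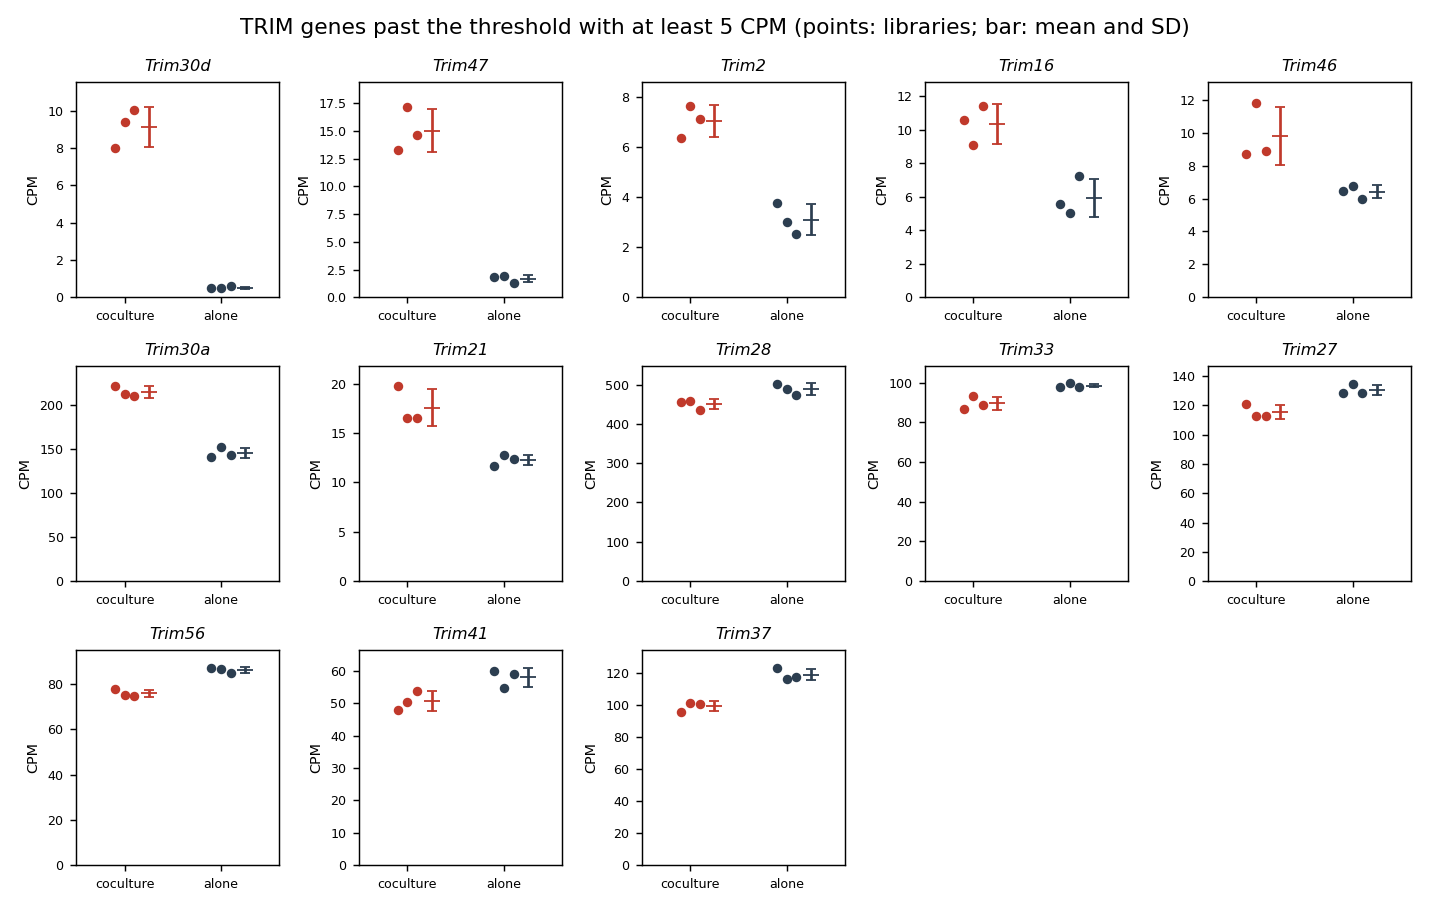
CPM in each library for the members called higher or lower whose level reached 5 CPM, coculture left of alone, with the mean and SD beside the points and each axis starting at 0. For Trim47 and Trim30d the libraries of cells alone lie near 0, whereas for Trim28 and Trim33 the groups lie close together without overlap.

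Among members with other roles, Trim47 had the largest rise of those detected above 1 CPM in both groups. Trim47 (ENSMUSG00000020773, chr11:116105752-116127210, minus strand) is a RING-type member with a PRY-SPRY domain. It had 13.3, 17.2 and 14.6 CPM in coculture (190, 269 and 249 counts), against 1.79, 1.92 and 1.33 CPM alone (26, 32 and 23 counts). The groups were far apart, and the change was 8.98-fold (log2 3.17, SE 0.18, adjusted p = 2.05e-13). Trim47 shares 225 exon bases (8.23% of its own) with Trim65 on the same strand.

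Trim16 (ENSMUSG00000047821, chr11:62820231-62850808, plus strand), which lacks a RING and acts with galectin-3 in the autophagy of damaged lysosomes, had 10.6, 9.06 and 11.4 CPM in coculture, against 5.57, 5.04 and 7.20 CPM alone. The lowest coculture library was above the highest of the cells alone, and the change was 1.74-fold (log2 0.80, SE 0.16, adjusted p = 0.000233). Of its exon bases, 5.19% are shared with Fbxw10. Of 3 tested members listed as lacking a RING, 1 (33.3%) was higher, beside 21.7% of all genes tested. The other 2, Trim14 and Trim44, did not pass.

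Trim46 (ENSMUSG00000042766, chr3:89234177-89246309, minus strand), known in neurons for bundling microtubules at the start of the axon, had 8.68, 11.8 and 8.87 CPM in coculture, against 6.46, 6.78 and 5.99 CPM alone. Replicate B was the highest library in both groups, and the groups did not overlap. The change was 1.53-fold (log2 0.61, SE 0.15, adjusted p = 0.00262), and 6.3% of its exon bases are shared with Krtcap2 on the opposite strand. Trim36, also a microtubule-binding member, did not pass (5.04 ± 0.68 CPM in coculture and 3.71 ± 0.90 CPM alone, log2 0.44, SE 0.21, adjusted p = 0.1), except without replicate B of the cells alone (adjusted p = 0.0293).

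Trim2 (ENSMUSG00000027993, chr3:84160439-84306877, minus strand), a member with NHL repeats that tags neurofilament light chain in mouse neurons, had 6.37, 7.66 and 7.11 CPM in coculture, against 3.78, 3.0 and 2.54 CPM alone. All coculture libraries were above all libraries of cells alone, and the change was 2.29-fold (log2 1.19, SE 0.19, adjusted p = 1.74e-05). Of the other tested NHL members, Trim32 was at 34.1 ± 0.37 CPM in coculture and 33.9 ± 2.96 CPM alone, and Trim3 at 26.3 ± 0.75 CPM in coculture and 26.6 ± 1.07 CPM alone. Neither passed (log2 0.01, SE 0.08, adjusted p = 0.954 for Trim32, and log2 -0.01, SE 0.08, adjusted p = 0.933 for Trim3). Summed renal epithelial and mesenchymal marker levels were higher in the same libraries as Trim47, Trim16, Trim46 and Trim2, as given above. Their part in these rises was not tested.

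The remaining falls were small and in well expressed genes. Trim37 (chr11:87127077-87220683), a ligase that holds back centriole assembly, had 95.5, 101 and 101 CPM in coculture, against 123, 116 and 118 CPM alone. It was 1.20-fold lower (log2 -0.26, SE 0.05, adjusted p = 0.000119), the largest fall among the members called lower. Trim27 (chr13:21179445-21194724), which works in endosomal recycling with the WASH complex, had 121, 113 and 113 CPM in coculture, against 128, 135 and 128 CPM alone.

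For both genes every coculture library was below every library of cells alone. For Trim27 the level was 1.13-fold lower (log2 -0.18, SE 0.05, adjusted p = 0.00529). Trim41 (chr11:48806404-48817353, minus strand), a ligase of protein kinase C, had 47.8, 50.4 and 53.8 CPM in coculture, against 60.1, 54.7 and 59.2 CPM alone. It was 1.14-fold lower (log2 -0.19, SE 0.07, adjusted p = 0.0219), but the call was lost without replicate A (adjusted p = 0.0777) or C (adjusted p = 0.0638) of the cells alone and without replicate A (adjusted p = 0.107) or B (adjusted p = 0.0514) of coculture.

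Of the 22 tested members that did not pass, 19 reached 5 CPM in at least 1 group, with log2 changes of -0.20 to 0.44. Besides those given above they included the well expressed Trim8, at 158 ± 1.90 CPM in coculture and 166 ± 13.9 CPM alone, and Trim35, at 145 ± 5.62 CPM in coculture and 152 ± 6.90 CPM alone. Trim44 was at 123 ± 1.54 CPM in coculture and 122 ± 1.92 CPM alone. Trim59 averaged 55.5 CPM in coculture and 52.5 CPM alone, Trim39 33.0 CPM in coculture and 31.3 CPM alone, and Trim11 28.2 CPM in coculture and 27.6 CPM alone.

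Trim23, a member with a GTP-binding ARF domain, averaged 22.1 CPM in coculture and 21.6 CPM alone, and Trim45 averaged 7.95 CPM in coculture and 8.15 CPM alone. The lowest were Trim13 with 4.37 CPM in coculture and 4.69 CPM alone, Trim62 with 1.15 CPM in coculture and 1.73 CPM alone, and Trim7 with 1.59 CPM in coculture and 1.02 CPM alone. For Trim62 and Trim7 the SE of the log2 change was 0.36. Even log2 changes of -0.57 for Trim62 and 0.63 for Trim7 did not pass at this depth (adjusted p = 0.233 and 0.176).

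Of the 29 members too low to test, 8 had 0 counts in all 6 libraries (Trim42, Trim43a, Trim52, Trim55, Trim58, Trim60, Trim61 and Trim80), and 21 had 1 to 33 counts over all libraries. The muscle members Trim54, Trim55, Trim63 and Trim72, the first 3 of which are the MURF proteins of the sarcomere, were all among these. Trim54 nevertheless had 5, 2 and 6 counts in coculture and 0 in each library of cells alone. Trim69 had 11, 10 and 2 counts in coculture and 3, 5 and 2 alone, which overlap. With no filter on low counts, Trim6, Trim54, Trim66 and Trim5 were also called higher, with adjusted p = 8.02e-06, 0.0196, 0.0267 and 0.00966.

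Relatives of the family that carry other names included Pml and Mid1, which were higher. Of Pml, Mid1, Mid2 and Rnf207, 3 were tested, 3 were called higher and 0 lower, beside 21.7% higher among all genes tested. Of these 3, Mid2 had a direction fixed by the filter. Pml, the core of PML nuclear bodies and an interferon-induced gene, was at 117 ± 4.83 CPM in coculture and 82.2 ± 4.49 CPM alone (1.43-fold, log2 0.52, SE 0.05, adjusted p = 1.39e-08). Mid1, a microtubule-bound ligase, was at 4.96 ± 0.40 CPM in coculture and 2.90 ± 1.09 CPM alone (log2 0.78, SE 0.24, adjusted p = 0.0117). Mid2, its paralog, had 142 counts over the coculture libraries and 2 over those of cells alone, or 73.4 times as many for the library sizes (exact 95% interval 19.96 to 612). Mid2 was under the filter's limit in every library of cells alone, so its direction was fixed. The summed renal and mesenchymal marker levels were higher in the coculture libraries too, with a part in this difference that was not tested.

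In the interferon pathway itself, Stat2 and Irf7 were higher and parts of its receptor complex lower. Of 9 genes on the list, all tested, 3 (33.3%) were higher, 2 (22.2%) lower and 4 did not pass, with a median log2 change of 0.02. Among all genes tested, 21.7% were higher and 15.2% lower, and on so short a list nothing is read from the count. Stat2 was at 134 ± 1.74 CPM in coculture and 51.0 ± 1.84 CPM alone (log2 1.39, SE 0.05, adjusted p = 3.55e-17). Irf7, which drives late type I interferon genes, was at 591 ± 5.57 CPM in coculture and 288 ± 14.3 CPM alone (log2 1.04, SE 0.04, adjusted p = 1.71e-16).

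The receptor chain Ifnar2 fell to 45.5 ± 2.27 CPM in coculture, against 56.4 ± 0.88 CPM alone (log2 -0.31, SE 0.06, adjusted p = 0.000353), and the receptor kinase Tyk2 to 71.1 ± 2.03 CPM in coculture, against 78.7 ± 1.32 CPM alone (log2 -0.15, SE 0.05, adjusted p = 0.036). The list of ISG15, its enzymes and other interferon-induced genes had 8 of 8 tested genes higher, beside 21.7% of all genes. Their log2 changes ran from 0.17 to 1.10, with a median of 0.42. The list is short and was chosen with earlier results of these data known, so nothing is read from the count. Isg15, the ubiquitin-like modifier, was at 97.1 ± 5.46 CPM in coculture and 45.2 ± 3.05 CPM alone (log2 1.10, SE 0.06, adjusted p = 1.64e-13). Herc6, its ligase in mouse, was at 18.7 ± 1.63 CPM in coculture and 10.5 ± 1.17 CPM alone (log2 0.83, SE 0.12, adjusted p = 2.94e-06), and its conjugating enzyme Ube2l6 at 98.4 ± 3.32 CPM in coculture and 67.5 ± 4.66 CPM alone (log2 0.54, SE 0.06, adjusted p = 2.13e-08).

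Targets and partners of TRIM ligases in innate sensing numbered 14 tested genes, with 4 (28.6%) higher, 1 (7.14%) lower and 9 not past the threshold (median log2 change -0.0036). The share that was higher was near the 21.7% of all genes tested, so nothing is read from the count. Ifih1, which encodes MDA5, was at 116 ± 0.29 CPM in coculture and 78.4 ± 3.02 CPM alone (log2 0.57, SE 0.05, adjusted p = 8.00e-10), Tmem173, which encodes STING, at 61.3 ± 1.41 CPM in coculture and 44.1 ± 0.67 CPM alone (log2 0.48, SE 0.06, adjusted p = 6.60e-07), and Mavs at 63.5 ± 1.81 CPM in coculture and 48.2 ± 2.68 CPM alone (log2 0.40, SE 0.06, adjusted p = 1.31e-05). The fourth was Ddx58, which encodes RIG-I (log2 0.36, SE 0.04, adjusted p = 1.59e-07).

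Vcp, the unfoldase that Trim21 uses, was the gene that fell, at 555 ± 18.6 CPM in coculture and 601 ± 31.4 CPM alone (log2 -0.11, SE 0.04, adjusted p = 0.0325). Tab2 and Tab3, the targets of Trim30a, did not pass (log2 0.00 and -0.05, SE 0.04 and 0.10, adjusted p = 0.967 and 0.742). Partners of Trim28 in heterochromatin numbered 7 tested genes, with a median log2 change of -0.02. Of these, 0 were higher, 3 (42.9%) were lower and 4 did not pass. Among all genes tested, 21.7% were higher and 15.2% lower, and on so short a list nothing is read from the count. Cbx5, which encodes the heterochromatin protein HP1 alpha, was at 249 ± 7.34 CPM in coculture and 294 ± 9.69 CPM alone (log2 -0.24, SE 0.04, adjusted p = 8.62e-05). Chd3 was at 139 ± 6.29 CPM in coculture and 160.4 ± 12.4 CPM alone (log2 -0.20, SE 0.05, adjusted p = 0.00399), and the histone methyltransferase Setdb1 at 132 ± 5.69 CPM in coculture and 148 ± 2.28 CPM alone (log2 -0.16, SE 0.05, adjusted p = 0.00814).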

How the data were processed

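Poly-A RNA of 6 libraries of sorted RAW264.7 cells was sequenced, 3 after coculture and 3 alone, grouped by the labels. The authors deposited raw counts per gene and FPKM values, per the file headers; each deposited FPKM value equalled count over length and library total, times 0.996 to 1.00. Tools listed in the submitters' processing notes, without roles, are edgeR 3.22.5, DESeq2 1.20.0, featureCounts 1.5.0-p3 and HISAT2 2.0.5, with the build mm10. How strand was set is not given in the sources used. Reads of overlapping antisense genes cannot be told apart. Rows without a gene name numbered 0, as did columns of other samples. Libraries within a group differed beyond sampling noise (chi-square per degree of freedom 2.98 to 4.57).

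Counts were tested with edgeR 4.0.16 in R 4.3.3 (quasi-likelihood F test, TMM, filterByExpr, a single group term), with adjusted p under 0.05 as the threshold. SE is the absolute log2 change over the square root of F. Where a group had 0 counts, 3 counts over the group served as the floor; intervals and floors cover counting error only. The procedure was tested on simulated data. Members called higher or lower that reached 5 CPM were named by library, other tested members by group mean, and up to 3 genes per list of relatives and partners, plus any that fell where others rose. The members, the lists and these rules were chosen with earlier results of these data known. Ddx58, Tab2, Tab3 and the low members named with counts were chosen after their values were seen. Among the genes of the lists that the rule took, 1 is not reported here.

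Promoter windows are from RefSeq (GRCm38.p6). Shared 150-base stretches and exon overlaps were computed from GENCODE M21. Alternatives were other scalings (DESeq2 size factors, upper quartile), other filters (none, or 1 CPM or more in 3 libraries), only protein-coding genes, DESeq2 1.42.0, limma 3.58.1 on log2(FPKM + 1) and log2(FPKM + 0.1), a replicate block and each library left out. A limit of a mean of at least 1 CPM alone was added after seeing the data.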

Additional observations from a re-analysis of the deposited data

How the results depend on the processing

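The 16 alternatives gave 9 to 15 members higher in coculture, against 11 as reported, and 3 to 6 lower, against 6 as reported. Leaving out each library in turn gave 12 to 14 higher and 3 to 5 lower, with 3 lower when replicate A of the cells alone was left out; fewer samples were fitted and more genes passed the filter. Of the 11 members called higher, 10 kept the call in every alternative in which they were tested, and Trim34a lost it in some; the direction of Trim12a, Trim30b and Trim30d was fixed by the filter. Of the 6 called lower, Trim27, Trim37 and Trim56 kept it, and Trim28, Trim33 and Trim41 lost it in some. Of the 22 that did not pass, 3 (Trim12c, Trim36 and Trim65) passed in some. Members that turned direction with a call in either fit numbered 0. Some members that did not pass changed sign near 0, such as Trim13 (log2 -0.27 to 0.08 over the alternatives) and Trim23 (-0.05 to 0.13). With no filter 15 were higher, and with at least 1 CPM alone 9 were higher and 4 lower. DESeq2 and both limma fits called 5 lower. Changes on the FPKM scale were smaller for low genes through the pseudocount; on log2(FPKM + 1) that of Trim30d was 1.59 and that of Trim47 was 2.01. No scaling moved the median log2 change of all genes beyond -0.0061 to 0.0075.

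Whether the replicate letters paired the libraries is not settled. Deviations of the same letter correlated across genes with r of 0.00144 (A), 0.0204 (B) and 0.0347 (C). Between different letters r ran from -0.0377 to 0.0179, below the values of B and C. These values cannot show that the libraries were unpaired. With the letter as a replicate block, 12 members were higher and 6 lower. Depth limits members under about 1 CPM, where SEs are widest, and p-values rest on 3 libraries a group.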
